A study of Mus musculus with 8 samples.

Results

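The tumours described here carry the number 14 in the labels: 14A, labelled a primary peritoneal tumour, and 14B, labelled a secondary tumour. They are 2 of the 5 tumours labelled Pak2-null among the 8 tumours of the series, and were set against the other 3 of that label, tumours 13, 59 and 61, all primary peritoneal tumours. Members were taken by tumour number and genotype label alone. All 5 came from conditional mice with floxed Nf2, floxed Cdkn2a and floxed Pak2, treated by injecting an adenovirus carrying Cre into the peritoneum. The 3 tumours labelled wild-type for Pak2 (19, 20 and 127) share the floxed Nf2 and Cdkn2a and the same injection, and serve here as background values. The labels give no age, sex, strain or clone. The cells that took up the virus are not named, and where in the body the secondary tumour grew is not stated. The labels also do not say whether 14A and 14B grew in 1 animal. If they did, the 2 libraries are 1 biological unit, and every p-value below measures only the spread between these samples.

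Mesothelial cells line the peritoneum. Nf2 encodes merlin, a membrane-linked tumour suppressor that feeds the Hippo kinases and thereby restrains the co-activators YAP and TAZ, and Cdkn2a encodes the cell-cycle inhibitors p16 and p19ARF. Pak2 is a kinase that acts below Rac and Cdc42 and can phosphorylate merlin. Mesothelioma may take an epithelial-like or a sarcoma-like form, and peritoneal tumours are often entered by macrophages, which carry integrins, Fc receptors and an oxidase for engulfing and killing. In bulk tissue, fewer cells of a type and less RNA per cell cannot be told apart.

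Total counts were 20402401 for 14A, 13469851 for 14B, and 14869175 to 17300251 for the other 3 labelled Pak2-null. A gene without counts may still be present at up to 3 counts, which is 0.147 CPM in 14A, 0.302 CPM in 14B and 0.167 to 0.185 CPM in tumours 13, 59 and 61. CPM is the count scaled by the normalised library size (counts per 1000000). Such limits describe counting error alone, as PCR copies were not told apart. The targeted genes had groups that did not overlap, as did 55.8% of all tested genes, and none passed the adjusted threshold. Pak2 stood at 226 CPM in 14A and 232 in 14B, against 183, 165 and 126 in tumours 13, 59 and 61 (adjusted p = 0.162, edgeR's quasi-likelihood test) and 101 ± 19.0 (SD, n = 3) in the wild-type tumours. Gene-level counts include any part of the transcript outside the floxed stretch, so this level does not check the label. Nf2 (adjusted p = 0.125) and Cdkn2a (adjusted p = 0.482) did not pass either, with Nf2 lower and Cdkn2a higher in both 14A and 14B than in the other 3.

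Tumour 14B stood apart from 14A in 2 ways that touch the results. It held RNA of pancreas: the 22 genes of the exocrine pancreas list took 24.1% of its counts, against 4.52% in 14A, 0.0099% in tumour 13 and at most 0.0028% in the other 5 tumours. It also held a small share of the pattern of tumour 13. For 31 genes above 10 CPM in tumour 13 and at least 4-fold higher there than in every other library but 14B, the level in 14B lay a median of 11.7% (quartiles 10.6 and 13.6) of the way from 14A to tumour 13, and was above 14A in 31 of 31. Tbx20, a cardiac and mesodermal transcription factor, was 0.489 CPM in 14A, 8.45 in 14B and 63.2 in tumour 13, and at most 0.946 in tumours 59 and 61. The glutamate receptor Gria1 was 0.929, 8.75 and 66.8 CPM in 14A, 14B and 13. Fn1, the matrix protein fibronectin, was 1421, 6028 and 38720 CPM. The same measure had a median of -0.103% for 19 genes highest in tumour 59 and 0.00534% for 137 genes highest in tumour 61. In tumour 13, 20 pancreas genes stood at a median of 0.0288% of their level in 14B. How the pattern of tumour 13 came to be in 14B was not tested.

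**Figure D1:**
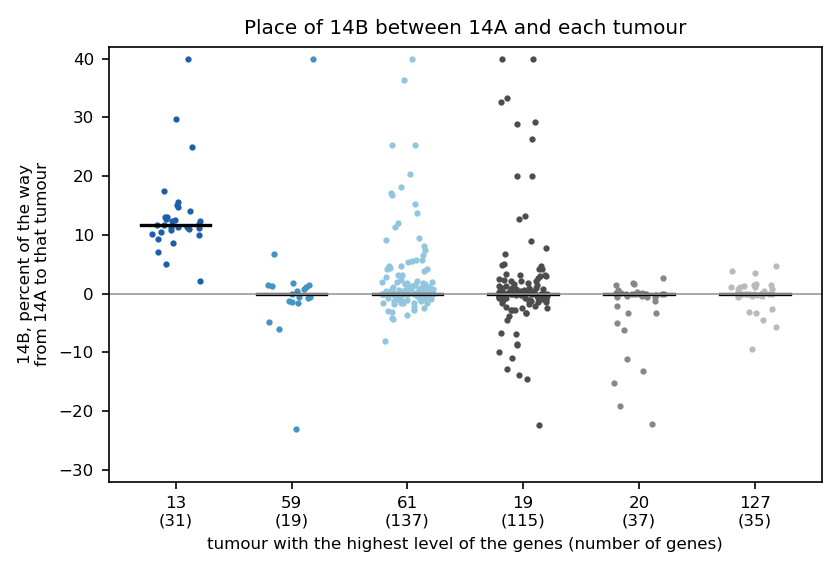
Place of 14B between 14A and each other tumour, in percent (y axis), for genes at least 4-fold higher in the named tumour than in all libraries but 14B (x axis; number of genes in brackets). Points are genes, with those beyond the axis drawn at its edge, and lines are medians; the genes of tumour 13 centre on 11.7% and those of the other tumours on about 0.

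Across 15553 tested genes, 1349 were higher in 14A and 14B than in tumours 13, 59 and 61 and 1033 were lower (edgeR, Benjamini-Hochberg adjusted p under 0.05). These are 15.3% of all tested genes together, 8.67% higher and 6.64% lower. For 8673 genes (55.8%), including all 2382 called, both 14A and 14B lay outside the range of the other 3. The median size of a called difference was 2.01 on the log2 scale, while the median of all tested genes was -0.0474. The higher genes included myeloid receptors, pancreas enzymes and many genes of the X chromosome. The lower genes included collagens and other matrix genes, the Hippo co-activators and homeobox genes. The wild-type mean was nearer to tumours 13, 59 and 61 than to 14A and 14B for 1220 of the 1349 higher genes and 817 of the 1033 lower genes. The same share over all tested genes was not counted, so these counts are not particular to the called genes. Over all tested genes, Spearman's rho of the wild-type tumours was 0.844 to 0.907 with tumours 13, 59 and 61. It was 0.744 to 0.825 with 14A and 14B.

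The number of calls rests on having both tumours. Without 14B, and likewise without 14A, 0 genes passed in edgeR. At an unadjusted p under 0.05 there were 2166 higher and 1806 lower genes with 14A alone, and 1735 and 1365 with 14B alone. With 14A alone against tumours 59 and 61, which leaves out both 14B and the tumour whose pattern it shared, 0 passed and 2258 and 2030 had an unadjusted p under 0.05. The lone tumour was there assumed to vary like the other group. Since both tumours lay outside the range of the other 3 for every called gene, the direction with either tumour alone is set by that and shows nothing further. Leaving out tumour 13, whose pattern 14B shared in part, gave 1086 higher and 845 lower genes, with 982 and 638 of them among the original calls. Leaving out tumour 59 gave 713 and 226, and leaving out tumour 61 gave 522 and 228. With library size as the only scaling the split was 963 higher and 1716 lower, 35.9% higher in place of 56.6%, and the median of all genes moved to -0.30. 

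14A and 14B were more alike than either was to another tumour. Spearman's rho over the tested genes was 0.957 between them, 0.79 to 0.866 between either of them and tumours 13, 59 or 61, and 0.928 to 0.947 among those 3. These coefficients are across genes, which are not independent replicates. Of the 1349 higher genes, 1200 (89.0%) were within 2-fold between 14A and 14B, 107 were at least 2-fold higher in 14B and 42 at least 2-fold lower. Of the 1033 lower genes, 14B was above 14A for 871 (84.3%), against 54.0% of all tested genes. Over these lower genes 14B lay a median of 10.4% (quartiles 4.32 and 15.3) of the way from 14A to tumour 13. Tumours 59 and 61 were also above 14A and 14B for each of them, so this value does not single out tumour 13.

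**Figure D2:**
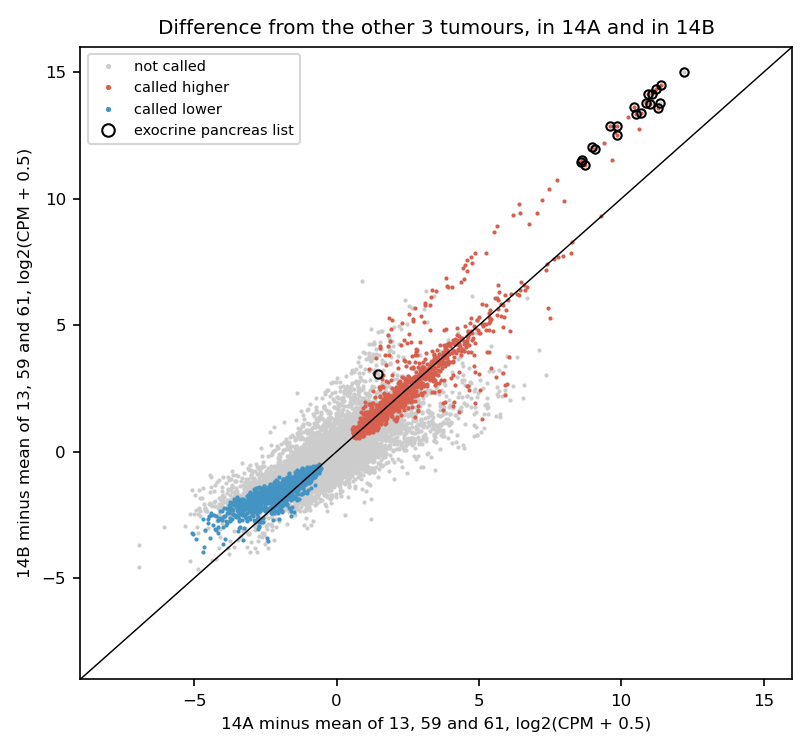
Difference of 14A (x axis) and of 14B (y axis) from the mean of tumours 13, 59 and 61, in log2(CPM + 0.5), for each tested gene; the line marks equality. Higher genes scatter along the line, lower genes lie mostly above it, and the exocrine pancreas list (circles) lies above it, all but 1 gene at the top right.

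Several myeloid receptors were far higher and nearly equal in 14A and 14B. The receptor, kinase, oxidase and factor families used here were drawn up after their values were seen, so their counts are a description. Cd300e, an activating receptor of monocytes, was 1125 CPM in 14A and 1160 in 14B. It was 1.40, 3.52 and 0.278 CPM in tumours 13, 59 and 61, and 18.0 on average in the wild-type tumours. The log2 difference was 9.36 ± 1.1 (SE; adjusted p = 0.0138, edgeR). Fcgr4, a receptor for the constant part of IgG antibodies, was 3902 and 3669 CPM against 8.21, 48.4 and 12.7 (log2 difference 7.35, adjusted p = 0.0168, edgeR). Both genes showed no overlap between the groups, which held for all 2382 called genes. Genes were named here in part because 14A and 14B were close, so neither trait adds support. Itgad, the alpha-D partner of the beta-2 integrin, was 339 and 263 CPM against 0.304, 1.11 and 0.612 (log2 difference 8.79, adjusted p = 0.00787, edgeR). Its partner Itgb2 was 1793 and 1795 CPM against 57.5, 111 and 54.9. Itgam was 976 and 1169 CPM against 119, 130 and 79.2. Of the 5 tested genes of the beta-2 integrin family, 3 were higher and none lower, and the same count of 3 was found without tumour 13, 59 or 61. Their summed level was 3300 CPM in 14A and 3360 in 14B, against 165 to 319 in tumours 13, 59 and 61 and 185 to 351 in the wild-type tumours.

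**Figure D3:**
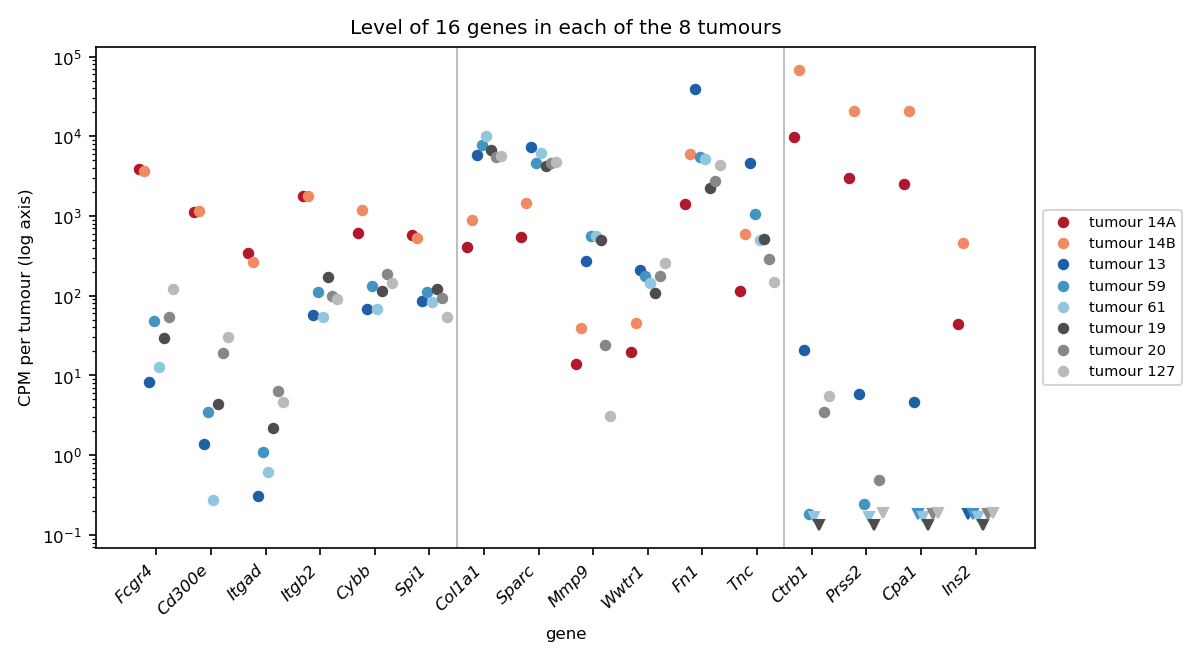
Level of 16 genes in each of the 8 tumours (CPM, log axis; circles are single tumours, and triangles mark tumours at or below 3 counts, drawn at that floor). The 6 myeloid genes are highest in 14A and 14B, Col1a1, Sparc and Wwtr1 are lowest there, Mmp9 is lower there than in tumours 13, 59 and 61 with wild-type tumours 20 and 127 in or below its range there, and the 4 pancreas genes are high in 14B and lower in 14A.

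Paired inhibitory and activating receptors of phagocytes were higher too. Of 8 tested genes of the Pilr, Lilr and Pir families, 6 were higher, and the summed level was 1260 CPM in both 14A and 14B against 88.9 to 177 in the other 3 labelled Pak2-null. Pilra, an inhibitory receptor, was 366 and 373 CPM against 10.5, 19.5 and 12.0. All 4 tested genes of the Sirp family were higher. Sirpa, the member through which phagocytes read CD47, was 791 and 866 CPM against 314, 392 and 232. Of 5 tested genes of the Fc gamma receptor group 2 were higher, Fcgr4 and Fcer1g, and 1 of 6 Siglec receptors was higher, a list whose median was -1.31 for 14B minus 14A on the log2 scale. Among 7 tested Cd300 genes 3 were higher, and among 8 tested Clec4 lectins 4 were higher and 1 lower. Slamf9, of the SLAM family of leukocyte receptors, was 486 and 416 CPM against a mean of 12.5 in the other 3. Without tumour 61, 3 Pilr, Lilr and Pir genes, 1 Sirp gene, 1 Cd300 gene and 1 Clec4 gene passed, and without tumour 13, 2 Sirp genes.

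Signalling and killing genes below these receptors were also higher. Fcer1g, the shared signalling chain of Fc receptors, was 1045 and 973 CPM against 78.6, 110 and 60.2. Tyrobp, the DAP12 adaptor, was 692 and 619 CPM against 98.2, 121 and 96.8. Of 10 tested kinases of the Src and Syk families 5 were higher, among them Syk, Fgr and Lyn, and Src was lower. Syk was 803 and 897 CPM against 82.1, 94.7 and 68.0 (log2 difference 3.37, adjusted p = 0.00851, edgeR), and Src ran the other way at 15.2 and 31.0 against 170, 131 and 124. Of 6 genes of the phagocyte oxidase, which makes superoxide, 5 were higher. Its membrane subunit Cybb was 607 CPM in 14A and 1200 in 14B against 67.3, 132 and 68.9. Without tumour 61 the kinases had 3 higher genes and the oxidase 3. Ptprc, the CD45 phosphatase of all leukocytes, was 1507 and 1413 CPM against 77.8, 179 and 93.8.

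The transcription factors of the myeloid lineage were higher in part. Spi1, encoding PU.1, was 582 and 529 CPM against 86.8, 113 and 83.3 (log2 difference 2.56, adjusted p = 0.0107, edgeR). Pou2f2, encoding the octamer factor OCT2, was 539 and 587 CPM against 24.3, 22.3 and 18.2. Batf3, a factor of dendritic cells, was 112 and 97.4 CPM against 1.28, 5.24 and 1.45. In all, 8 of 22 listed myeloid and lymphoid factors were higher and none lower. Maf and Irf8, which act in macrophages, did not pass the test: Maf was 107 and 114 CPM against 172, 189 and 136 (adjusted p = 0.117, edgeR). Without tumour 61, 4 factors were higher.

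The macrophage markers did not move as 1 block. Of 27 tested, 8 were higher and 2 lower. Cd68, a lysosomal protein, was 468 and 485 CPM against 93.5, 125 and 91.1, and the complement genes C1qa, C1qb and C1qc were higher at log2 differences of 1.77, 2.24 and 2.10. Csf1r, the receptor for the macrophage growth factor CSF1, was 351 and 425 CPM against 649, 610 and 425 (adjusted p = 0.234, edgeR). Lyz2, lysozyme, was 1605 and 1644 CPM against 1558, 1478 and 1049, likewise not called. The 2 lower genes were Cd163, the haemoglobin scavenger receptor, at 11.3 and 17.3 CPM against 68.8, 72.9 and 78.6, and the mannose receptor Mrc1 at 46.4 and 119 CPM against 558, 545 and 304. Without tumour 61 the count was 5 higher and 1 lower. Csf1, the ligand, was lower at 61.0 and 93.5 CPM against 368, 357 and 209.

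Granule genes of neutrophils and their precursors were higher at low level. Of 16 tested neutrophil genes 8 were higher and 1 lower. Elane and Mpo, made in immature granulocytes, were 7.97 and 9.53 CPM in 14A and 16.3 and 20.0 in 14B, and at most 0.370 CPM in tumours 13, 59 and 61. Ngp was 43.2 and 23.03 CPM against 0.122, 0.432 and 0.278. The lower gene was Mmp9, a gelatinase also made by macrophages and tumour cells, at 13.8 and 39.7 CPM against 270, 566 and 564. The wild-type tumours 19, 20 and 127 had 502, 24.3 and 3.10 CPM of Mmp9, on both sides of 14A and 14B. Cell-surface Cd177 was 11.8 and 15.7 CPM against at most 0.247. Without tumour 13 the count of higher genes was 5.

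Lymphocyte genes differed between 14A and 14B more than the myeloid genes did. Of 15 tested B and plasma cell genes 5 were higher than in the other 3 labelled Pak2-null, and the list's median was 2.31 lower in 14B than in 14A on the log2 scale. The list summed to 5730 CPM in 14A and 1730 in 14B, against 176 to 608 in tumours 13, 59 and 61. Wild-type tumours 19, 20 and 127 had 784, 3170 and 312 CPM, with tumour 20 above 14B. Ms4a1, the CD20 antigen, was 99.9 CPM in 14A, 20.0 in 14B and at most 2.84 in tumours 13, 59 and 61. None of 32 tested T and NK cell genes passed in edgeR, with 1 higher and 0 lower at an unadjusted p under 0.05 and 0 by limma-voom. Their median was 2.37 lower in 14B than in 14A. Cd3e, part of the T cell receptor complex, was 35.5 CPM in 14A, 6.34 in 14B and 0.304, 11.4 and 3.34 in tumours 13, 59 and 61, so the groups overlapped. Without tumour 13 or 59 the B cell list had 2 higher genes and without tumour 61 it had 0 by edgeR, with 7 higher and 1 lower at an unadjusted p under 0.05.

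Promoter sequence is shown for 3 of the 20 higher genes with the widest gap among those within 2-fold between 14A and 14B. The 20 were not chosen by cell type. The 3 are those of the 20 whose window holds the letters GAGGAAGT, a PU.1-type ETS element, or its reverse complement ACTTCCTC (capitals). Each run is the 250 bases before the RefSeq start, in GRCm38.p6, 5′ to 3′ on the strand of the gene.
Fcgr4 chr1:171018676-171018925 (plus strand): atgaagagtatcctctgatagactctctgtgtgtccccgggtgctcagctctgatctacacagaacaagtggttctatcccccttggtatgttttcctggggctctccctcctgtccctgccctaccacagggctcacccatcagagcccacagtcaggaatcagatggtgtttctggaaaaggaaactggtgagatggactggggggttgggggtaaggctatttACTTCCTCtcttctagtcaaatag
Slamf9 chr1:172475110-172475359 (plus strand): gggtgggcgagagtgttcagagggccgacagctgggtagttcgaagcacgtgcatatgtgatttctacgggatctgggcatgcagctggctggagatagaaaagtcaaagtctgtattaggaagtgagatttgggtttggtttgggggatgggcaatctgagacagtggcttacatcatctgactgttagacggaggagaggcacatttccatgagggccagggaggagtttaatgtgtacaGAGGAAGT
Cd72 chr4:43454627-43454876 (minus strand): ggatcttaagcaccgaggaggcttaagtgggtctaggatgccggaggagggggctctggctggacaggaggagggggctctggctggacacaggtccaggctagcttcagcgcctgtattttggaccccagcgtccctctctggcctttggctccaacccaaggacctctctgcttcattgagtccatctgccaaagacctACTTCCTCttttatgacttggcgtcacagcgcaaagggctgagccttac
The element ended close to the start in all 3, beginning 24, 8 and 49 bases before it in Fcgr4, Slamf9 and Cd72. Of the 20 genes, 13 were found in the RefSeq promoter set. Among promoters of genes called higher, 72 of 1292 (5.57%) held it on either strand, against 17 of 984 (1.73%) for genes called lower, 363 of 14060 (2.58%) for tested genes and 802 of 32851 (2.44%) for all promoters. GAGGAAGT was 1 of 9 short sequences counted, and it overlaps AGAGGAAG, which was found in 6.81% of higher, 3.96% of lower and 3.67% of all promoters. The TEAD core GGAATG was in 11.8% of higher and 11.5% of lower promoters, and the AP-1 element TGACTCA in 3.17% and 3.86%. The presence of these letters is a description of the window and not a measure of binding.

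Pancreas genes were higher in both 14A and 14B, and most of all in 14B. Of 21 tested exocrine pancreas genes 18 were higher and none lower. All 21 had groups that did not overlap, against 55.8% of all tested genes. Ctrb1, chymotrypsinogen, was the most counted gene of 14B at 678260 counts, 5.04% of the library. Cpa1, carboxypeptidase A1, was 2485 CPM in 14A and 20810 in 14B, against 4.62 in tumour 13, 0 in tumour 59 and 0.111 in tumour 61. Prss2, a trypsinogen, was 3022 and 20450 CPM against 5.90, 0.247 and 0.167. For 20 of these genes the level in 14A was a median of 13.3% (quartiles 11.9 and 14.9) of that in 14B. Pancreas genes outside the list were also higher in 14B than in 14A. The insulin gene Ins2 was 43.7 CPM in 14A and 464 in 14B, and Rbpjl, an acinar transcription factor, 14.7 and 118. Gcg, the glucagon gene, was 0.733 CPM in 14A and 69.6 in 14B (adjusted p = 0.0661 against the other 3, edgeR). With tumour 59 or 61 left out, 1 and 2 pancreas genes passed, and without tumour 13, 19 passed. Leaving the pancreas list out of the fit gave 1330 higher and 1031 lower genes.

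Pancreas enzyme promoters often join an E-box, CACCTG, to the letters TTTCCCA, the parts read by the acinar factor complex PTF1. Prss2 and Cel, a lipase, are shown because their windows hold both (capitals, either strand), 250 bases before the RefSeq start in GRCm38.p6. No spacing between the 2 parts was required. In Prss2 they began 169 and 111 bases before the start, so a joined element is not shown there.
Prss2 chr6:41521526-41521775 (plus strand): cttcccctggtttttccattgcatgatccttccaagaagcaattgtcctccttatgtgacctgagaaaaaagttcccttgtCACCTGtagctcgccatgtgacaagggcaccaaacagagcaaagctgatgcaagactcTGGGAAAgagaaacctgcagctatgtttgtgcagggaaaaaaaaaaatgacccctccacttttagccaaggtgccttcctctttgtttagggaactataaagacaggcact
Cel chr2:28563404-28563653 (minus strand): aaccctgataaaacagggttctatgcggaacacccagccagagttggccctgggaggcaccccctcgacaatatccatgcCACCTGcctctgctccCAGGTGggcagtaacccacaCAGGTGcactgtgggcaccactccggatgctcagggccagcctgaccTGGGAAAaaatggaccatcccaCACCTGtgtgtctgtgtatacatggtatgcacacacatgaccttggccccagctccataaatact
CACCTG was in 10 of 18 windows of the list (55.6%) against 17.2% of all promoters, and TTTCCCA in 6 of 18 (33.3%) against 6.82%. These shares describe pancreas genes as such and not the tumours.

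A few higher genes were near 0 in tumours 13, 59 and 61 and equal in 14A and 14B without belonging to pancreas. Of 19 genes with at most 3 counts in each of those 3 tumours and at least 10 CPM in both 14A and 14B, Ankdd1a was 50.6 and 51.1 CPM, Hs3st2, a heparan sulfate sulfotransferase, 42.5 and 41.5, and Pax3, a factor of muscle and neural crest precursors, 22.1 and 16.5. Hs3st2 had 0 counts in all 3 other tumours and Ankdd1a 0 in tumours 13 and 61. Pax3 averaged 4.99 ± 6.20 CPM (SD, n = 3) in the wild-type tumours. No gene met the same rule in the other direction, which asked for at most 3 counts (0.302 CPM) in 14B. The part of the tumour-13 pattern in 14B, a median of 11.7% for 31 genes, makes that limit hard to meet. The 0 can therefore not be set against the 19. Lipg, an endothelial lipase, was 3164 and 3216 CPM against 5.17, 10.1 and 17.9, and Cxcl13, a chemokine for B cells, 3392 and 2914 CPM against 4.93, 20.8 and 21.8.

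Most collagen genes were lower. Of 28 tested, 18 were lower and 2 higher, with a median log2 difference of -2.68 against -0.0474 for all tested genes. Col1a1, the main chain of type I collagen, was 404 CPM in 14A and 898 in 14B, against 5806, 7835 and 10010 in tumours 13, 59 and 61 and 5909 ± 626 (SD, n = 3) in the wild-type tumours. Its log2 difference was -3.61 ± 0.60 (SE; adjusted p = 0.0248, edgeR). Col3a1 was 853 and 1365 CPM against 5697, 7394 and 7875. The type VI chains Col6a1, Col6a2 and Col6a3 were lower at -2.84, -2.90 and -3.11, and Col11a1, a fibrillar chain of cartilage, had the widest gap at -4.46. The 2 higher genes were Col25a1, a transmembrane collagen of neurons, at 37.2 and 52.5 CPM against at most 0.779, and Col11a2 at 23.4 and 19.2 against at most 2.96. The summed collagen level was 3060 CPM in 14A and 5800 in 14B, against 29100 to 34600 in the other 3 and 26900 to 31000 in the wild-type tumours. The list's median was -3.20 without 14B and -2.54 without tumour 13. The count of lower collagens was 14 without tumour 13, 5 without 59 and 3 without 61.

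**Figure D4:**
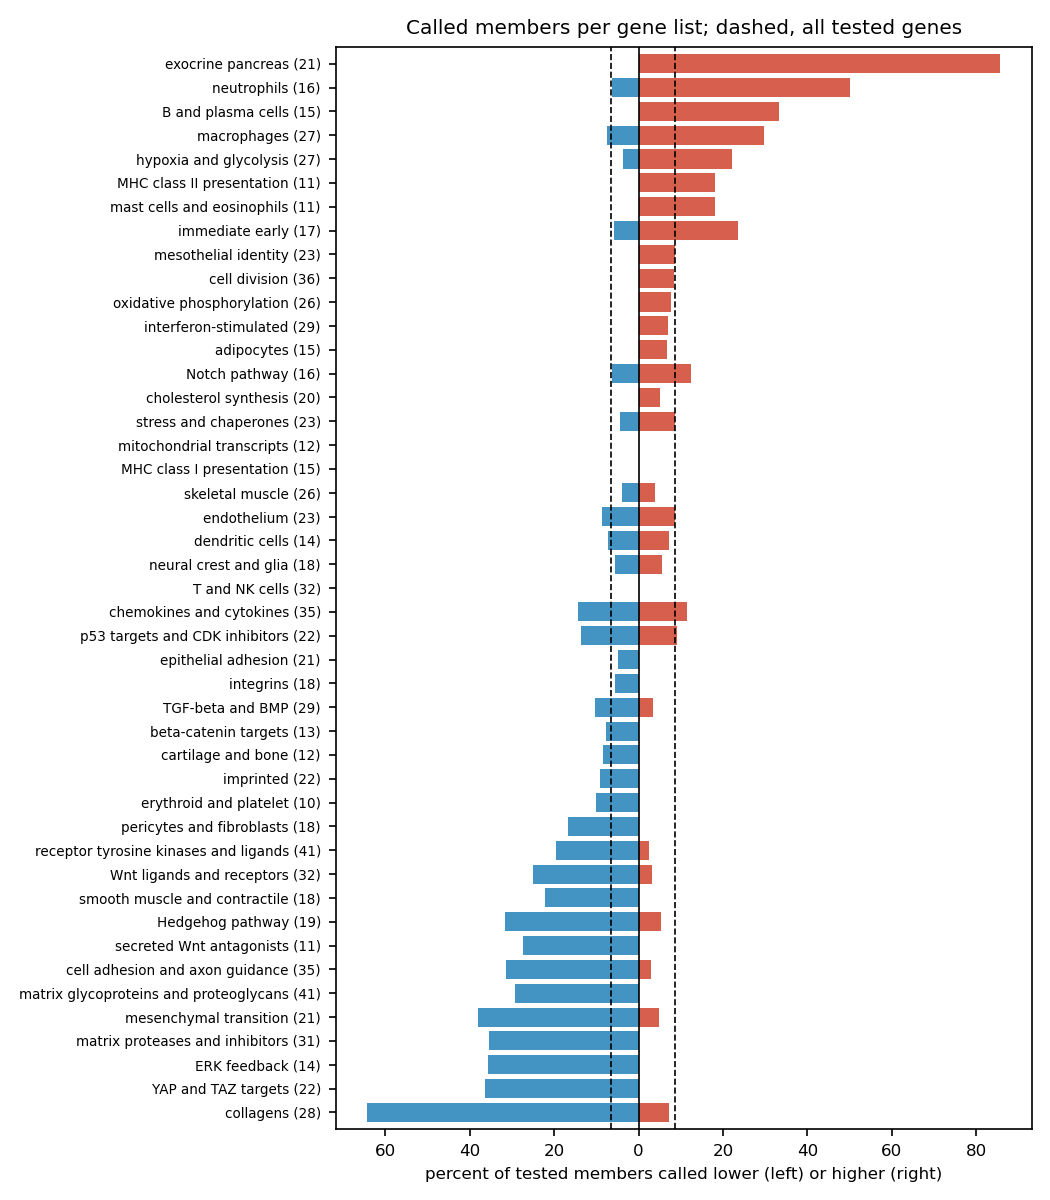
Percent of tested members called lower (bars to the left) or higher (bars to the right) in 14A and 14B, for each list with at least 10 tested members (number in brackets). Dashed lines give the same for all tested genes, 6.64% lower and 8.67% higher; collagens reach furthest left and exocrine pancreas furthest right.

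Other matrix genes were lower in part. Of 41 tested glycoproteins and proteoglycans 12 were lower and none higher. Sparc, a collagen-binding protein, was 546 and 1448 CPM against 7415, 4565 and 6236. Biglycan, Bgn, was 508 and 1145 CPM against 4840, 3555 and 3668. Of 31 matrix proteases and inhibitors 11 were lower and none higher, including the membrane protease Mmp14 at 210 and 280 CPM against 1037, 965 and 825. Ctsk, the collagen-cleaving cathepsin K, was 19.5 and 57.1 CPM against 395, 487 and 628. Fn1 and Tnc, at 114 and 594 CPM against 4574, 1068 and 501 for Tnc, overlapped between the groups and were not called. Of 18 pericyte and fibroblast genes 3 were lower, the PDGF receptors Pdgfra and Pdgfrb and the surface antigen Thy1. In 14B each of the matrix values named in this paragraph lay above 14A. Without tumour 59 the lower glycoproteins and proteases were 5 and 4, and without tumour 61 they were 1 and 4. Over all 1033 genes called lower, 14B lay a median of 10.4% of the way from 14A to tumour 13. The part of the tumour-13 pattern in the matrix levels of 14B was not tested.

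Mesenchymal genes were lower in part. Of 21 tested genes of mesenchymal transition 8 were lower and 1 was higher, and 12 did not pass the test. The count of lower genes was 5 without tumour 13 and 1 without tumour 59 or 61. Snai1, a repressor of epithelial genes, was 3.52 and 9.25 CPM against 46.1, 40.8 and 41.97, and N-cadherin, Cdh2, was 5.92 and 18.4 CPM against 112, 71.6 and 92.2. Zeb1 was lower at 35.0 and 53.1 CPM against 136, 116 and 91.2. Its paralog Zeb2, which macrophages also express, was higher at 388 and 443 CPM against 140, 181 and 122 (log2 difference 1.48, adjusted p = 0.0224, edgeR). Of 21 tested epithelial adhesion genes none was higher in edgeR (2 at an unadjusted p under 0.05, 0 by limma-voom) and 1, Cldn1, was lower. Their median was 0.0835, -1.14 without 14B and 2.93 without tumour 61.

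Several homeobox and T-box genes that mark position were lower. Hoxb9 was 0.489 and 1.11 CPM against 9.36, 35.4 and 45.4, with a wild-type mean of 0.815. Hoxc9 was 0.733 and 2.41 CPM against 18.5, 26.5 and 26.8, and 4 of 7 tested Hoxc genes were lower. Irx1, an Iroquois factor, was 0.391 and 2.62 CPM against 20.5, 33.1 and 36.0. Tbx3 was 0.880 and 4.63 CPM against 31.7, 37.1 and 20.3. None of 10 tested Hoxa genes passed in edgeR (0 higher and 2 lower at an unadjusted p under 0.05, 0 by limma-voom), 1 of 9 Hoxb genes was lower, and 2 of 5 Hoxd genes were lower. Without tumour 59 or 61 no Hoxc gene passed. Among homeobox genes that ran the other way, Lhx8 was 82.8 and 73.6 CPM against 0.243, 4.997 and 4.23.

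The co-activators that merlin restrains were themselves lower. Yap1 was 16.5 CPM in 14A and 32.1 in 14B against 122, 96.7 and 103 (log2 difference -2.16 ± 0.33 SE, adjusted p = 0.0215, edgeR). Wwtr1, encoding TAZ, was 19.8 and 45.4 CPM against 211, 175 and 146. Their DNA-binding partners Tead3 and Tead4 and the angiomotins Amot, Amotl1 and Amotl2 were lower too, so that 7 of the 11 genes of this group, drawn up after values were seen, were lower and none higher. Without tumours 13, 59 and 61 in turn the count was 6, 3 and 1. Tead1, at 28.9 and 74.4 CPM against 219, 191 and 143, was not called (adjusted p = 0.0556, edgeR). Of 22 tested YAP and TAZ target genes 8 were lower and none higher. Cyr61, a secreted target, was 17.1 and 27.5 CPM against 145, 130 and 80. Ctgf was 28.9 and 158 CPM against 912, 151 and 163, where 14B overlapped the other group, and was not called. The list's median was -1.64, and -1.66 without 14B. The count of lower targets was 5 without tumour 13, 1 without 59 and 3 without 61.

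Growth-factor routes were lower in part. Of 32 Wnt ligands and receptors 8 were lower and 1, Fzd7, higher. Wnt5a was 2.74 and 8.55 CPM against 47.7, 77.9 and 52.4, and its receptor Ror2 2.15 and 7.54 CPM against 32.1, 31.2 and 29.2. Of 19 Hedgehog genes 6 were lower, among them the signal transducer Smo at 15.5 and 27.9 CPM against 145, 69.8 and 97.1 and the factor Gli3 at 3.96 and 8.55 CPM against 29.1, 38.7 and 33.1. Gli1, the usual readout of the pathway, was at most 3.06 CPM in all 5 tumours and was not called (adjusted p = 0.721, edgeR). Of 14 ERK feedback genes 5 were lower, with Dusp4 at 29.0 and 50.3 CPM against 156, 140 and 109. The 14 summed to 352 and 492 CPM against 1350, 1190 and 751. In the wild-type tumours they summed to 376, 384 and 410 CPM, between 14A and 14B. For the other lists of this paragraph every wild-type sum lay above 14A and 14B. Of 41 receptor tyrosine kinases and ligands 8 were lower and 1 was higher. Fgfr1 was 38.1 and 94.9 CPM against 535, 384 and 355. Of 35 adhesion and guidance genes 11 were lower and 1 was higher. Slit2 was 6.21 and 7.84 CPM against 40.1, 181 and 159, with 14B close to 14A. Leaving out tumour 59 or 61 left at most 1 Wnt, 2 Hedgehog, 3 ERK feedback, 3 kinase or ligand and 6 guidance genes called, counting both directions.

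Cell division and oxidative phosphorylation genes were called higher about as often as all tested genes, of which 8.67% were higher. Of 36 cell division genes 3 were higher, Pcna, Mcm3 and Tk1, and none lower, and Mki67 was 237 and 162 CPM against 116, 103 and 107 (adjusted p = 0.0573, edgeR). Of 26 oxidative phosphorylation genes 2 were higher. Of 27 hypoxia and glycolysis genes 6 were higher and 1 lower, with the glycolytic enzyme Aldoa at 1711 and 1816 CPM against 629, 619 and 580. It averaged 2398 CPM in the wild-type tumours, with an SD of 1591 (n = 3). Without tumour 59, and likewise without tumour 61, none of the cell division, oxidative phosphorylation and glycolysis genes passed in edgeR, while 10 hypoxia and glycolysis genes were higher and 1 lower at an unadjusted p under 0.05 in each case. With library size alone 2 hypoxia and glycolysis genes and 1 cell division gene were higher. None of 15 MHC class I genes passed in edgeR (3 at an unadjusted p under 0.05, 0 by limma-voom), although all 15 had positive log2 differences, and B2m was 2295 and 2067 CPM against 520, 1193 and 567 (adjusted p = 0.0822, edgeR). Immediate early genes were mixed, with Fos, Junb, Atf3 and Zfp36 higher and Egr3 lower among 17.

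The labelled tissue was checked against mesothelial markers. Of 23 tested, 2 were higher in 14A and 14B, Aldh1a2 and Itln1, and none lower. Over all tested genes 8.67% were higher and 6.64% lower. Aldh1a2, the retinoic acid synthase, was 88.2 and 75.02 CPM against 5.53, 9.19 and 4.18. Msln, mesothelin, was 8.55 and 35.3 CPM against 1.10, 60.5 and 127, and Wt1 was 5.13 and 9.05 CPM against 2.86, 2.22 and 8.46. Both overlapped between the groups. Calb2, calretinin, had 6 counts in 14A, 1 in 14B and 0 in tumours 13, 59 and 61. Muc16 had 12, 6, 2, 0 and 0 counts in the same order. The 26 listed genes summed to 373 CPM in 14A and 967 in 14B, against 3610, 1240 and 1570 in tumours 13, 59 and 61, of which Igfbp5 alone held 2646 CPM in tumour 13. Calb2 and Muc16, 2 defining markers, were thus near 0 in all 5 tumours, while Msln and the keratins varied widely among them: Krt8 was 23.2 and 76.9 CPM against 0.0608, 6.66 and 175. With library size alone the count was 1 higher and 4 lower.

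Genes of the X chromosome stood out by position. Of 508 tested X genes, 112 (22%) were higher in 14A and 14B, against 8.23% of autosomal genes, while 6.30% were lower against 6.65%. For each gene the deviation from its median over the 8 tumours was taken in log2 CPM, and the autosomal median was set to 0 in each tumour. Over the 310 X genes whose mean log2 CPM reached 3, the median deviation was 0.33 in 14A and 0.46 in 14B. Tumours 13, 59 and 61 stood at -0.03, -0.04 and -0.10, and the wild-type tumours at -0.20, -0.01 and -0.02. The groups did not overlap, and the difference of 0.455 is 1.37-fold. An exact permutation test, two-sided by doubling the smaller tail, gave p = 0.2, the smallest that 2 against 3 samples allow in that form. In all 9 windows of 60 neighbouring X genes both 14A and 14B lay above the other 3, by 0.30 to 0.63. Windows, here and on autosomes, started every 30 genes, so neighbouring windows share genes and are not independent. In 297 autosomal windows the difference ran from -0.32 to 0.34, and 4 exceeded 0.30.

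The shift on X was smaller with weak genes added or with called genes left out. It was 0.294 over all tested genes and 0.254 without the genes called higher or lower. As 112 X genes were called higher and 32 lower, leaving out called genes lowers the shift by itself. It was 0.390 without 14B and 0.519 without 14A. Named X genes included the innate sensor Tlr8, at 422 and 489 CPM against a mean of 29.1, the kinase Btk at 143 and 139 against 17.7, and Was, the actin regulator of blood cells, at 195 and 196 against 28.5, all 3 known from leukocytes. Fam50a, which is expressed widely, was 112 and 125 CPM against a mean of 34.4. Kdm6a was 46.4 and 43.4 CPM against 26.9, 29.1 and 24.0 (adjusted p = 0.0457, edgeR). Xist, which silences an X in female cells, was at most 1.28 CPM in all 5 tumours. Of the Y-linked genes, Ddx3y was 99.2 and 81.7 CPM against 89.1, 87.6 and 82.3, while Eif2s3y was lower at 22.4 and 21.1 against 46.3, 50.1 and 53.6 (log2 difference -1.20, adjusted p = 0.0161, edgeR). By median deviation over 5 Y genes, wild-type tumours 19 and 20 stood at -5.67 and -5.53 and tumour 127 at 0.78. The 5 tumours labelled Pak2-null lay between -0.55 and 0.37. The wild-type values given for X thus come from tumours unlike in Y expression. The cause of the X shift was not tested.

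**Figure D5:**
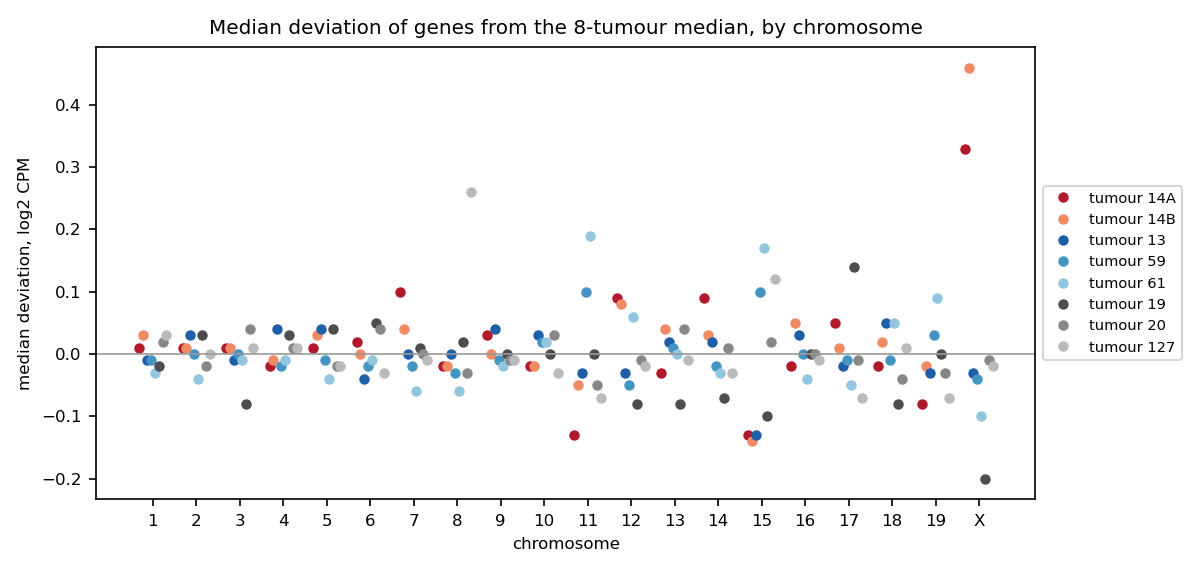
Median deviation of genes from their median over the 8 tumours (log2 CPM, y axis), by chromosome (x axis), with each autosomal median set to 0 overall; points are tumours. On X, 14A stands at 0.33 and 14B at 0.46, and the other 6 tumours between -0.20 and -0.01.

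The primary and the secondary tumour were also compared directly, with 1 library each and no test. Past 4-fold, 535 genes were higher in 14B (3.44% of tested genes) and 380 lower (2.44%). The split turned with the scaling: with library size alone 312 were higher and 518 lower, and 14B had the lowest TMM factor of the 8 libraries at 0.739. The higher genes held the pancreas enzymes, of which 18 stood among the 76 genes that were both higher than in the other 3 and at least 4-fold above 14A, and genes highest in tumour 13. Tubb3, neuronal tubulin, was 2.25 CPM in 14A, 28.7 in 14B and 239 in tumour 13. Islet genes also differed, with the granule protein Chga at 3.52 CPM in 14A and 50.3 in 14B. Immunoglobulin segments were among the genes lower in 14B. Igkv10-96 was 152 CPM in 14A and 6.94 in 14B, and Ighv3-6 was 129 and 5.43. The immunoglobulin genes together summed to 14600 CPM in 14A and 3060 in 14B, against 39.4 to 997 in tumours 13, 59 and 61. In wild-type tumours 19, 20 and 127 they summed to 1080, 8040 and 544 CPM, so tumour 20 lay above 14B. Igha, the constant part of IgA, was 2484 CPM in 14A and 159 in 14B.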

How the data were processed

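RNA sequencing counts of 8 mouse tumours were used. The authors deposited 1 table of raw read counts for 35275 genes, without normalisation and with 1 column a tumour, together with a column of gene length in bases that was not used. Reads were aligned with STAR and counted with HTSeq on GRCm38 (mm10), per the submitters' processing notes. Not given in the sources used here are versions, gene annotation, strand setting and read filters, so overlapping and antisense genes, and near-identical copies such as immunoglobulin segments, trypsinogens and Sirpb1 genes, may share or lose reads. No row of the table lacked a gene, 70 gene names occur more than once and were kept apart by their identifier, and 0 sample columns were left unused.

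Genes were kept by filterByExpr (minimum count 10, minimum total 15) and scaled by TMM. The 2 tumours numbered 14 were compared with tumours 13, 59 and 61 by edgeR 4.0.16's quasi-likelihood test (R 4.3.3, no covariate, Benjamini-Hochberg adjusted p under 0.05). Positive log2 differences are higher in 14A and 14B. The standard error is the log2 difference divided by the square root of F. CPM was taken with TMM over all 8 tumours, and log2 CPM used a prior count of 2. The smallest p of an exact permutation of 2 against 3 samples is 0.2 where, as here, the smaller tail is doubled. The script was tested on simulated data. Alternatives used DESeq2 1.42.0, limma 3.58.1, other scalings and filters, and each tumour left out.

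The members and gene lists were chosen with earlier results of these data known. The rule for named genes took the targeted genes, up to 15 of the largest changes in each direction, up to 4 genes of lowest p per list, up to 10 transcription factors and up to 10 genes near 0 in the other group in each direction, and up to 10 with the largest difference between 14A and 14B in each direction. The 20 largest changes within 2-fold between 14A and 14B, 10 X genes, and the other genes printed were chosen after their values were seen. Promoters are RefSeq windows on GRCm38.p6.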

Additional observations from a re-analysis of the deposited data

How the results depend on the processing

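No paired analysis was possible because the replicate names are tumour numbers, and the groups compared share none. Against 1349 higher and 1033 lower genes, leaving out 1 tumour at a time gave 0 to 1086 higher and 0 to 845 lower. DESeq2 called 2524 and 2357, limma-voom with sample quality weights 1591 lower, library size alone 1716 lower, and edgeR's glmTreat against a 2-fold change 304 and 55. With 14A alone against tumours 59 and 61 both counts were 0. Other scalings, filters and fits stayed within 1.5 times of both counts. Past 4-fold, 312 genes were higher in 14B with library size alone, against 535. The X chromosome difference of 0.455 was 0.294 with all tested genes, 0.254 without the called genes, and 0.390 to 0.519 with 1 tumour left out. The cause of these movements was not tested.

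Among the genes named, these uncalled ones changed sign. With library size alone Ddx3y was -0.17 and Lyz2 -0.00047. With 1 tumour left out in turn, Ddx3y ran from -0.077 to 0.27, Irf8 from -0.0072 to 1.18, Krt8 from -1.32 to 3.88, Igfbp5 from -3.67 to 1.48, Gria1 from -4.55 to 3.17 and Tbx20 from -5.40 to 2.52, the highest of the last 3 without tumour 13. Gli1 was 0.025 and Krt8 2.90 with limma-voom. With quality weights Krt8 was 2.12 and Igfbp5 0.22. Igfbp5 was 0.017 with 14A alone against 59 and 61. Gria1 was 0.19 with limma-voom, 0.95 with quality weights and 0.94 with 14A alone against 59 and 61. With 2 tumours against 3, and possibly 1 animal against 3, no result here has a replicate check beyond these samples. Genes under about 1 CPM rest on few counts.
The comparison of 14A alone with 59 and 61, the fit without pancreas genes and all alternatives for the X chromosome were chosen after seeing the data.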
